A study of Rattus norvegicus with 2 samples.

Results

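Circular RNAs (circRNAs) are closed loops formed by back-splicing, in which the donor site at the end of a downstream exon is joined to the acceptor site at the start of an upstream exon. When 1 site can be joined to several partners, a gene gives a family of loops that share 1 end and differ at the other, which is known as alternative back-splicing. Loops of this kind usually nest, so that the longer form spans the whole of the shorter one, and they can compete for the shared splice site. Such families are known for many protein-coding genes, and circRNAs in general are known to be abundant in nervous tissue and stable enough to be measured in many others. Each form is told apart in sequencing only by reads across its own back-splice junction, so a read gives the ends of the loop and not the exons inside it.

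The 4143 circRNAs described here were chosen from a table of 17261 circRNAs by position and name alone. Each has a single host gene, an identifier of circBase (a catalogue of published human circRNAs), a span between its ends of over 500 and under 50000 bp, a place outside chromosome Y, and a start or end that another such circRNA of the same gene also uses. They are 53.0% of the 7811 catalogued circRNAs that met all conditions but the last, and they come from 1241 of 3393 genes. No measured value entered the choice beyond being listed in at least 1 library. For 22 of them, under 5 host names, the gene name in the table has become a date or a date number. They were counted and are not named. The other 3668 catalogued circRNAs, which share no end with another one, serve below as the comparison.

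The study compared rats with bone cancer pain and control rats. In the first group, Walker256 cells, which are a breast carcinoma line of the rat kept as ascites in SD rats, were injected alive into the marrow cavity of the tibia. Controls had the same operation with Walker256 cells that had been boiled for 20 minutes. Each group had 3 animals killed 21 days after surgery, and both groups are represented by 1 library. The labels do not say whether the RNA of the animals was pooled. For the source, 1 field says cancer cells and another says spinal cord cells from rats that received the injection. No age is given in the labels used here.

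The libraries held 159941 (control) and 151685 (bone cancer pain, called the pain library below) circular junction reads, and the lowest listed value was 2 reads. Gene names and positions in the table are in the human style although the labels give rat, the table names no genome build, and it gives no strand. Start and end below are therefore the lower and the higher coordinate, and which of them is the acceptor was not determined. Of the marker genes fixed for the labelled sources, 0 of 16 neuronal, 0 of 9 microglial, 1 of 8 astrocyte and 2 of 14 oligodendrocyte genes had any circRNA, with at most 5 reads in a library for a whole list. Of 9 epithelial and carcinoma markers, 3 had one, ERBB2, MKI67 and TOP2A (96 control and 78 pain library reads). MKI67 and TOP2A are also in the list of cell division and DNA repair used below. The other markers of this kind, EPCAM, KRT8, KRT18, KRT19, CDH1 and MUC1, had none. The part of any marked cell type in the results was not tested. With 1 library per group there is no replicate check, so every ratio compares 2 libraries. Calls are by size, and all intervals are exact 95% intervals that cover counting error only and were not adjusted for the number of sets or pairs compared. Fewer cells with a circRNA and less of it per cell cannot be told apart in such libraries.

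circRNAs that share an end held a large part of both libraries. They had 73797 reads in the control, 46.1% of the library (interval 45.9 to 46.4), and 68315 in the pain library, 45.0% (44.8 to 45.3). The catalogued circRNAs that share no end had 23.5% and 23.1%. Sharing went with more reads and longer loops. A member needs another listed circRNA at its end, so hosts with many reads can give members more readily. How much of the difference the rule itself brings was not tested. The median was 10 reads over both libraries for members against 6 for the others, and the median span was 8551 bp (quartiles 3435.5 and 17904, range 502 to 49796) against 4156 bp. Of the members, 2579 were listed in both libraries (62.2%, interval 60.8 to 63.7), 796 in the control alone and 768 in the pain library alone. Of the 3668 others, 51.5% were listed in both (49.9 to 53.2), 946 in the control alone and 832 in the pain library alone. The control listed 3375 of the 4143 members, and 12179 of all 17261 circRNAs in the table. For the pain library these counts were 3347 and 12322.

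All members with the same start, or the same end, in a gene were taken as a set, and each member of a set is called a form. There were 2172 sets, 1109 with a shared start and 1063 with a shared end. Most were pairs: 1699 sets (78.2%) had 2 forms, 364 had 3, 80 had 4 and the rest between 5 and 10. A total of 823 members belonged to a start set and an end set at once, so sets of a gene often share a form and are not independent. Of the genes, 647 had 2 members and 32 had 10 or more. The gene with the most was TBCD, a chaperone that folds tubulin, with 24 members in 16 sets. PTK2, the focal adhesion kinase, followed with 23 members in 14 sets, and PICALM, an adaptor of clathrin-coated vesicles, with 21 in 10. Summed over their members, these genes were close between the libraries. TBCD had 292 control and 268 pain library reads (ratio of read shares 0.97, interval 0.82 to 1.15), PTK2 had 927 and 813 (0.92, 0.84 to 1.02), and PICALM had 246 and 194 (0.83, 0.69 to 1.01). Of the 14 genes with 12 or more members, the interval held 1 in 9, lay above 1 in 2 and below 1 in 3. The higher ones were BARD1, the partner of BRCA1 in DNA repair, with 212 and 339 reads (1.69, 1.42 to 2.01), and ADAMTS6, a secreted metalloprotease, with 468 and 598 (1.35, 1.19 to 1.52). The lower ones were DOCK1, an activator of the GTPase RAC, with 186 and 132 reads (0.75, 0.59 to 0.94), ARHGAP10 with 537 and 429 (0.84, 0.74 to 0.96) and UBAP2 with 1687 and 1461 (0.91, 0.85 to 0.98).

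The sets with the most forms show what a family at 1 splice site looks like. PICALM had 10 loops that end at position 85742653 of chromosome 11, with spans from 5320 to 41361 bp. In order of span they had 30, 87, 4, 10, 16, 15, 0, 2, 4 and 0 reads in the control and 5, 59, 3, 8, 17, 25, 2, 4, 15 and 2 in the pain library. The 9244 bp loop led in both, with 51.8% of the reads at that end in the control and 42.1% in the other library. The shortest loop stood lower in the pain library (17.9% and 3.57% of the set, ratio of read shares 0.176, interval 0.0532 to 0.457), and the 34785 bp loop stood higher (2.38% and 10.7%, ratio 3.95, 1.26 to 16.4). The long loops of this gene took a larger part of the reads at the shared site in the pain library, and the lead was with the same loop in both.

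TRIO, a guanine nucleotide exchange factor, had 6 loops ending at position 14336836 of chromosome 5. From 5950 to 46012 bp they had 63, 172, 29, 4, 4 and 19 control reads and 47, 131, 41, 7, 0 and 49 pain library reads. The 20215 bp loop led in both libraries, with 59.1% and 47.6%, and the longest had 6.53% and 17.8% (odds ratio 3.10, interval 1.73 to 5.74). An odds ratio here is the odds that a read of the set falls on the form, in the pain library over the control. TBCD showed another pattern at its set of 6 loops ending at position 80869665 of chromosome 17, with 2, 25, 64, 3, 2 and 18 control reads and 3, 9, 107, 4, 0 and 25 pain library reads from the shortest to the longest. Its 11139 bp loop held 56.1% in the control and 72.3% in the pain library (odds ratio 2.03, 1.18 to 3.53), the 8385 bp loop had 21.9% and 6.08%, and the longest, of 41566 bp, was close at 15.8% and 16.9%. DHTKD1, a mitochondrial enzyme of lysine breakdown, had 7 loops starting at position 12123471 of chromosome 10 but few reads, 2, 2, 5, 0, 0, 0 and 2 in the control against 0, 0, 4, 14, 2, 5 and 7. Of its 7 loops, 2 were listed in both libraries. The loop with most pain library reads, of 12800 bp, was absent from the control listing.

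**Figure D1:**
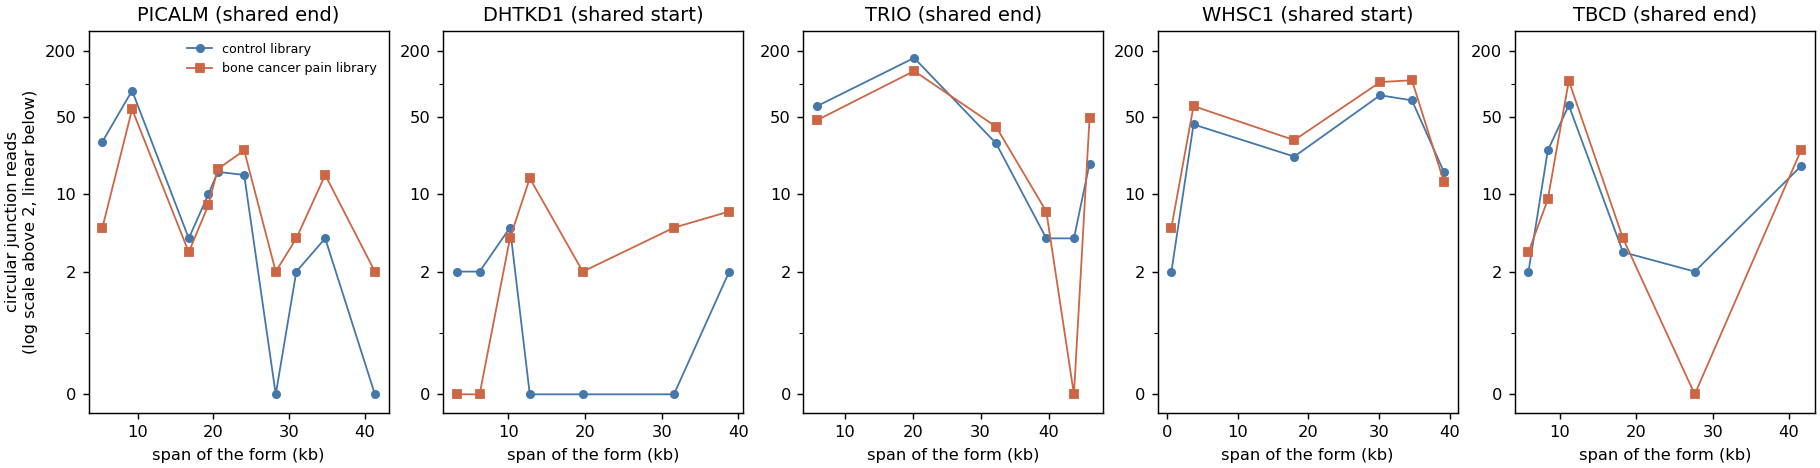
Circular junction reads of each form (y axis, log scale above 2 reads and linear below) against its span in kb (x axis) in the 5 sets with the most forms, with circles for the control library and squares for the pain library. In PICALM and TRIO the same form has the most reads in both libraries and the lines separate at long spans. In DHTKD1 most forms are at 0 reads in 1 library.

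The sets with the most reads were of 2 kinds. In 1 kind a single loop held nearly every read at its splice site and kept that place in both libraries. ASPH, an enzyme that hydroxylates aspartate and asparagine in the endoplasmic reticulum, had 4 loops with the same end on chromosome 8. The shortest, of 3221 bp, had 2743 control and 2049 pain library reads, which is 99.8% and 98.9% of the set. The longer loops had 6, 0 and 0 control reads and 9, 8 and 5 pain library reads. CORO1C, an actin-binding coronin, was alike: its 2139 bp loop, starting at position 109046048 of chromosome 12, had 1178 and 765 reads, or 99.1% and 98.2%. SPECC1 (start 20107646, chromosome 17) had 686 and 885 reads on its 1580 bp loop, or 99.0% and 98.7%, and PTTG1IP (start 46275125, chromosome 21) had 923 and 584 on its 6062 bp loop, or 99.7% and 99.2%. In CAMSAP1, which binds the minus ends of microtubules, the 3 loops ending at position 138774924 of chromosome 9 kept nearly the same mix, with 921, 53 and 5 control reads and 919, 53 and 8 pain library reads.

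A leading loop may hold its share while its amount differs. The CORO1C loop had a ratio of read shares of 0.685 (interval 0.624 to 0.751), that of PTTG1IP 0.667 (0.600 to 0.741) and that of ASPH 0.788 (0.743 to 0.834), so these stood lower in the pain library together with their sets. The SPECC1 loop stood higher, at 1.36 (1.23 to 1.51).

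In the other kind several loops at 1 site had many reads each. MAN1A2, a Golgi mannosidase that trims N-glycans, had 4 such loops starting at position 117944808 of chromosome 1. From the shortest to the longest (3460, 12646, 18464 and 40140 bp) they had 291, 271, 305 and 108 control reads and 252, 302, 527 and 164 pain library reads. The 18464 bp loop led in both libraries but by little in the control: its share was 31.3% there, beside 29.8% for the 3460 bp loop, and 42.3% beside 20.2% in the pain library (odds ratio 1.61, interval 1.35 to 1.93). ASXL1, a chromatin regulator that works with a histone H2A deubiquitinase, had 2 loops starting at position 30954187 of chromosome 20. The 2740 bp loop had 1871 and 2030 reads and the 5491 bp loop 153 and 278, so the share of the longer one was 7.56% and 12.0% (odds ratio 1.67, 1.36 to 2.07). CRIM1, a transmembrane protein that binds bone morphogenetic proteins, had 2 loops ending at position 36669878 of chromosome 2. Its 1478 bp loop had 634 and 360 reads (ratio 0.599, 0.525 to 0.682) and its 46122 bp loop 264 and 241 (0.963, 0.805 to 1.15), which put the longer one at 29.4% and 40.1% of the set.

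XPO1, the nuclear export receptor, went toward its shorter loop. Of the 2 starting at position 61749746 of chromosome 2, that of 3911 bp had 336 and 263 reads and that of 11293 bp 687 and 404. The longer loop led in both libraries, with 67.2% and 60.6% (odds ratio of the shorter 1.33, interval 1.08 to 1.64). ASAP1, which activates the GTPase of ARF proteins and sits at focal adhesions, is the most-read set in which the lead differed. Among its loops with a common start on chromosome 8, that of 16332 bp had 768 control and 433 pain library reads (ratio 0.594, 0.527 to 0.670), and that of 28145 bp had 510 and 472 (0.976, 0.859 to 1.11). The shorter of these held 60.0% of the control set and the longer 52.2% of the pain library set.

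Taken one by one, circRNAs that share an end passed 2-fold a little less often than circRNAs in the whole table. With 10 or more reads over both libraries, 2105 members could be read. Of these, 324 (15.4%) stood higher in the pain library by 2-fold or more, beside a background of 17.3 percent of all 5415 circRNAs, and 291 (13.8%) were at least 2-fold lower, beside a background of 17.0 percent. The other 1490 lay between. Ratios for these counts had 0.5 reads added to each library. The median log2 ratio was 0.01 for members, -0.00 for all circRNAs and -0.08 for the 1423 catalogued circRNAs that share no end, of which 16.7% were higher and 19.7% lower. The share past 2-fold depended on reads: among members it was 47.4% at 10 to under 20 reads (n = 741), 24.7% at 20 to under 50 (n = 756), 13.0% at 50 to under 200 (n = 514) and 10.6% at 200 or more (n = 94). For all circRNAs these shares were 49.4%, 28.1%, 15.0% and 10.2%. For the catalogued circRNAs that share no end they were 50.4%, 30.0%, 18.9% and 7.5% (n = 40 in the last class). At matched reads the members were thus near the background of all circRNAs, which includes them. They were below the circRNAs that share no end in every class but that of 200 or more reads. Neither direction stood out among the members. The balance of 324 to 291 turned to 295 higher and 331 lower when scaled by the median of ratios instead of the library totals.

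The members with the largest ratios at 20 or more reads were mostly listed in 1 library alone or barely in the other. ALDH1A2, which makes retinoic acid, had a 21577 bp loop with 0 control and 28 pain library reads. Its other 2 loops with an end in common had 8 and 11 control reads and 9 and 5 pain library reads, so the difference lay in the long loop. RGS12, a regulator of G protein signalling, had 0 and 26 reads on a 26984 bp loop, and the 1982 bp loop sharing an end with it was also higher, at 5 and 30 reads (ratio 6.33, interval 2.43 to 20.9). ANKRD17 was alike, with 0 and 23 reads on a 7052 bp loop and 7 and 33 on a 1634 bp loop (4.97, 2.16 to 13.3). QSER1 had 2 and 29 reads on an 8279 bp loop (15.3, 3.87 to 132.2), and PDHX, a subunit of the pyruvate dehydrogenase complex, had 2 and 25 on a 20799 bp loop (13.2, 3.29 to 114.8). RGS12 had a further loop with an end in common, of 28263 bp, at 4 and 2 reads, and that of ANKRD17, of 12024 bp, had 0 and 2. In the other 3 genes no loop sharing an end had more than 11 reads in a library.

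At the low end, PSMD14, a deubiquitinase of the proteasome lid, had 26 control and 2 pain library reads on a 3845 bp loop (ratio 0.0811, interval 0.00933 to 0.324), while its 27726 bp loop had 2 and 6. WDHD1, a DNA replication protein, had 29 and 3 on a 2665 bp loop (0.109, 0.0213 to 0.352). ST7L had 20 and 2 on a 2878 bp loop (0.105, 0.0119 to 0.434), with 2 and 4 on its 18925 bp loop. CANX, the chaperone calnexin, had 28 and 3 on a 6422 bp loop (0.113, 0.0220 to 0.366). FUK, fucose kinase, had 18 and 2 on a 606 bp loop (0.117, 0.0132 to 0.489), with 0 and 3 on a 2008 bp loop. In each of these 5 genes the low loop was the shortest of those that share the end, and none of the longer loops at that end was lower in the pain library. The 5 loops were picked for their low ratios. In PSMD14, ST7L and FUK the longer loops had at most 6 reads in a library, so their direction is uncertain.

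The balance of higher and lower members varied with span. Among members of 10 kb or more, 158 of 888 (17.8%) were at least 2-fold higher and 105 (11.8%) lower, with a median log2 ratio of 0.08. The background over all circRNAs of any span was 17.3 percent higher and 17.0 percent lower, and it was not split by span. Among those of 2 to under 10 kb, 109 of 847 (12.9%) were higher and 137 (16.2%) lower, with a median of -0.07. Below 2 kb it was 57 (15.4%) and 49 (13.2%) of 370, with a median of 0.00. Scaling by the median of ratios, which lowers every log2 ratio by 0.08, gave 144 higher and 116 lower at 10 kb or more and turned the balance below 2 kb to 55 and 60. In the catalogued circRNAs that share no end, more were lower than higher in every span class, with 51 higher and 62 lower of 327 at 10 kb or more. The reads summed over members were 26210 and 25598 at 10 kb or more (ratio of read shares 1.03, interval 1.01 to 1.05) and 33069 and 28720 at 2 to under 10 kb (0.916, 0.901 to 0.930). The read-weighted median span was 5506 (control) and 5829 bp (pain library) for members and 2913 and 2943 bp for the others.

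**Figure D2:**
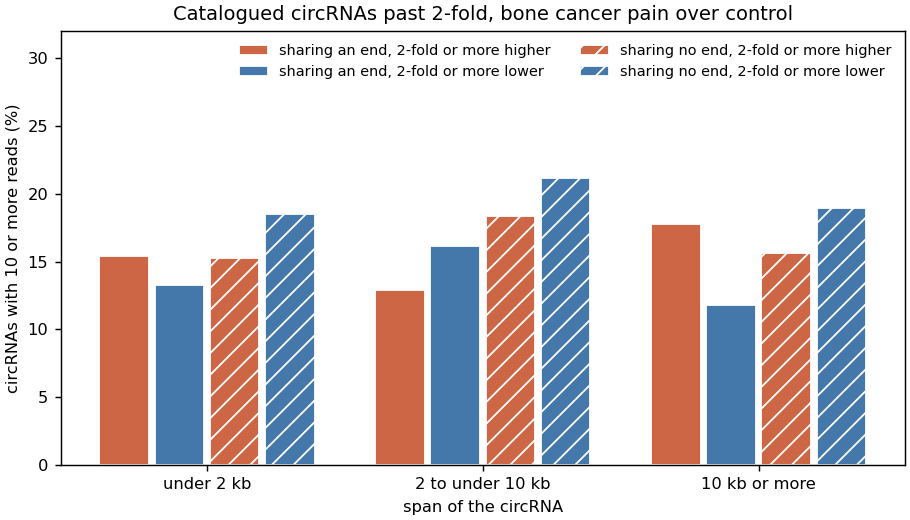
Percent of catalogued circRNAs with 10 or more reads (y axis) that were at least 2-fold higher or lower in the pain library, by span (x axis), with plain bars for circRNAs sharing an end and hatched bars for those sharing none. At 10 kb or more, 17.8% of the sharing circRNAs were higher and 11.8% lower, and in the classes that share no end the lower bars are the taller ones.

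Most shared splice sites had a clear leading loop in both libraries. There were 841 sets with 20 or more reads in each library, from 560 genes. The form with the most reads had a median of 78.6% of a set in the control (quartiles 62.5 and 92.0) and 78.2% in the pain library (62.8 and 90.9). It held 90% or more of 249 sets in the control and of 233 in the other library, and under 50% of 53 and 50. With 2 forms the median was 84.9% and 82.8%, with 3 forms 71.2% and 68.2%, and with 4 or more 59.5% and 59.1%. The shortest form led 450 of the 841 sets in the control and 432 in the pain library.

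The lead was with the same form in 736 sets, 15 had a tie for the lead in at least 1 library, and in 90 sets (10.7%), from 80 genes, it was with another form. The background is 8.97 percent, that is 129 of 1438 sets made in the same way from all circRNAs with 1 host gene. These 1438 include the 841 ends read here, so the background is not separate from the members. With every circRNA at the 841 ends counted, the lead differed in 94 (11.2%), so at the remaining ends it differed in less than 8.97 percent. Start sets and end sets differed equally often, 48 of 448 (10.7%) and 42 of 393 (10.7%). The lead differed in 39 of 541 sets of 2 forms (7.21%), 36 of 219 sets of 3 (16.4%) and 15 of 81 sets of 4 or more (18.5%). Between the control and the pain library the lead went to a longer form in 54 sets (6.42%, background 5.63 percent) and to a shorter one in 36 (4.28%, background 3.34 percent). The interval of the odds ratio of the new leading form left out 1 in 41 of the 90, 24 toward a longer and 17 toward a shorter form. These forms were picked for having taken the lead, so their intervals describe counting error and are no test. When every further circRNA of the gene with the same end was added, whether catalogued or not, 89 of the 90 still differed. The exception was KATNAL1.

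**Figure D3:**
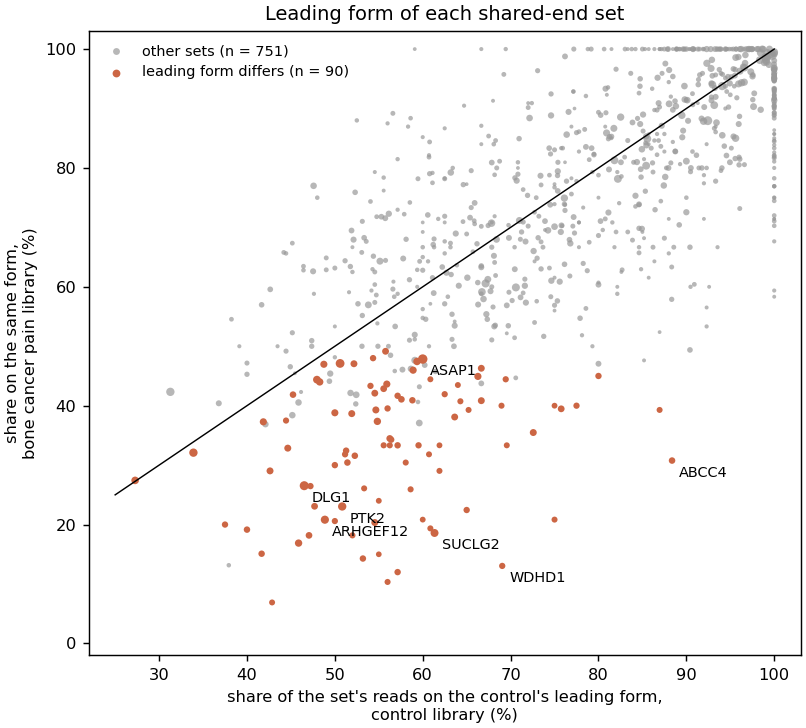
Share of the set's reads on the form that led in the control, in the control library (x axis, %) and in the pain library (y axis, %), for 841 sets with 20 or more reads in each library, with larger points for sets with more reads. The line marks equal shares. Grey points are sets with the same lead or a tie, most of them near the line, and the 90 coloured points are sets whose leading form differs, with 7 genes named.

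Among the sets with the most reads whose lead differed, several also had a large difference of shares between the 2 libraries. DLG1, a scaffold protein of cell junctions and synapses, had 5 loops ending at position 196846401 of chromosome 3, with spans of 3604, 14628, 28619, 33951 and 38480 bp. They had 156, 367, 72, 113 and 81 control reads and 125, 125, 33, 51 and 137 pain library reads. The first 4 had fewer reads in the pain library and the longest had more. The 14628 bp loop held 46.5% and 26.5% of the set (ratio of read shares 0.359, interval 0.291 to 0.441) and the 38480 bp loop 10.3% and 29.1% (ratio 1.78, 1.35 to 2.38, odds ratio 3.58, 2.62 to 4.92). PTK2 had 3 loops with 1 start on chromosome 8. That of 18140 bp had 152 control and 56 pain library reads (0.388, 0.281 to 0.531), that of 33378 bp 46 and 50, and that of 44510 bp 101 and 137 (1.43, 1.1 to 1.87). The lead passed from the shortest, at 50.8% of the control set, to the longest, at 56.4% of the pain library set, although the summed reads of the gene's members were close.

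SUCLG2, a subunit of mitochondrial succinyl-CoA synthetase, also had a larger share of its reads on longer loops in the pain library. Its 4 loops starting at position 67546222 of chromosome 3 (2498, 13106, 24837 and 33389 bp) had 146, 63, 22 and 7 control reads and 21, 63, 11 and 18 pain library reads. The shortest held 61.3% and 18.6% of the set (ratio 0.152, interval 0.0911 to 0.241), and the 13106 bp loop 26.5% and 55.8% (odds ratio 3.49, 2.13 to 5.75). The reads of that loop were equal, so its lead came with a lower count of the shortest loop. ARHGEF12, another guanine nucleotide exchange factor, went the other way among 3 loops starting at position 120276827 of chromosome 11. The 1706 bp loop had 85 and 211 reads (ratio 2.62, 2.03 to 3.41), the 3333 bp loop 86 and 56 (0.687, 0.481 to 0.972) and the 25794 bp loop 5 and 2. In the control the first 2 were nearly even, at 48.3% and 48.9%, and in the pain library they held 78.4% and 20.8% (odds ratio of the shortest 3.88, 2.52 to 6.02).

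In other sets of this rank the lead differed by little. NFATC3, a transcription factor of the calcineurin pathway, had 212 and 200 control reads on loops of 1135 and 4624 bp starting at position 68155890 of chromosome 16, and 253 and 274 pain library reads (odds ratio of the longer 1.14, interval 0.876 to 1.49). WHSC1, a histone H3 lysine methyltransferase, had 6 loops starting at position 1902353 of chromosome 4. Its 30145 and 34637 bp loops had 79 and 71 control reads and 104 and 108 pain library reads (odds ratio of the longer 1.14, 0.782 to 1.67), and the other 4 kept their order. BARD1 had 38 and 47 control reads on its 14028 and 29636 bp loops starting at position 215632206 of chromosome 2 and 89 and 79 pain library reads (odds ratio of the shorter 1.58, 0.929 to 2.70). CCT2, a chaperonin subunit, had 50 and 73 control reads on loops of 2675 and 4129 bp and 41 and 37 pain library reads (odds ratio of the shorter 1.61, 0.878 to 2.98). In these 4 sets the interval holds 1, so the difference of lead is within counting error. RBM39, a splicing factor, had 5 loops ending at position 34313077 of chromosome 20, with no clear leader in the control. Its 8416 bp loop had 26 and 41 reads, or 21.5% and 36.3% (odds ratio 2.07, 1.12 to 3.88).

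**Figure D4:**
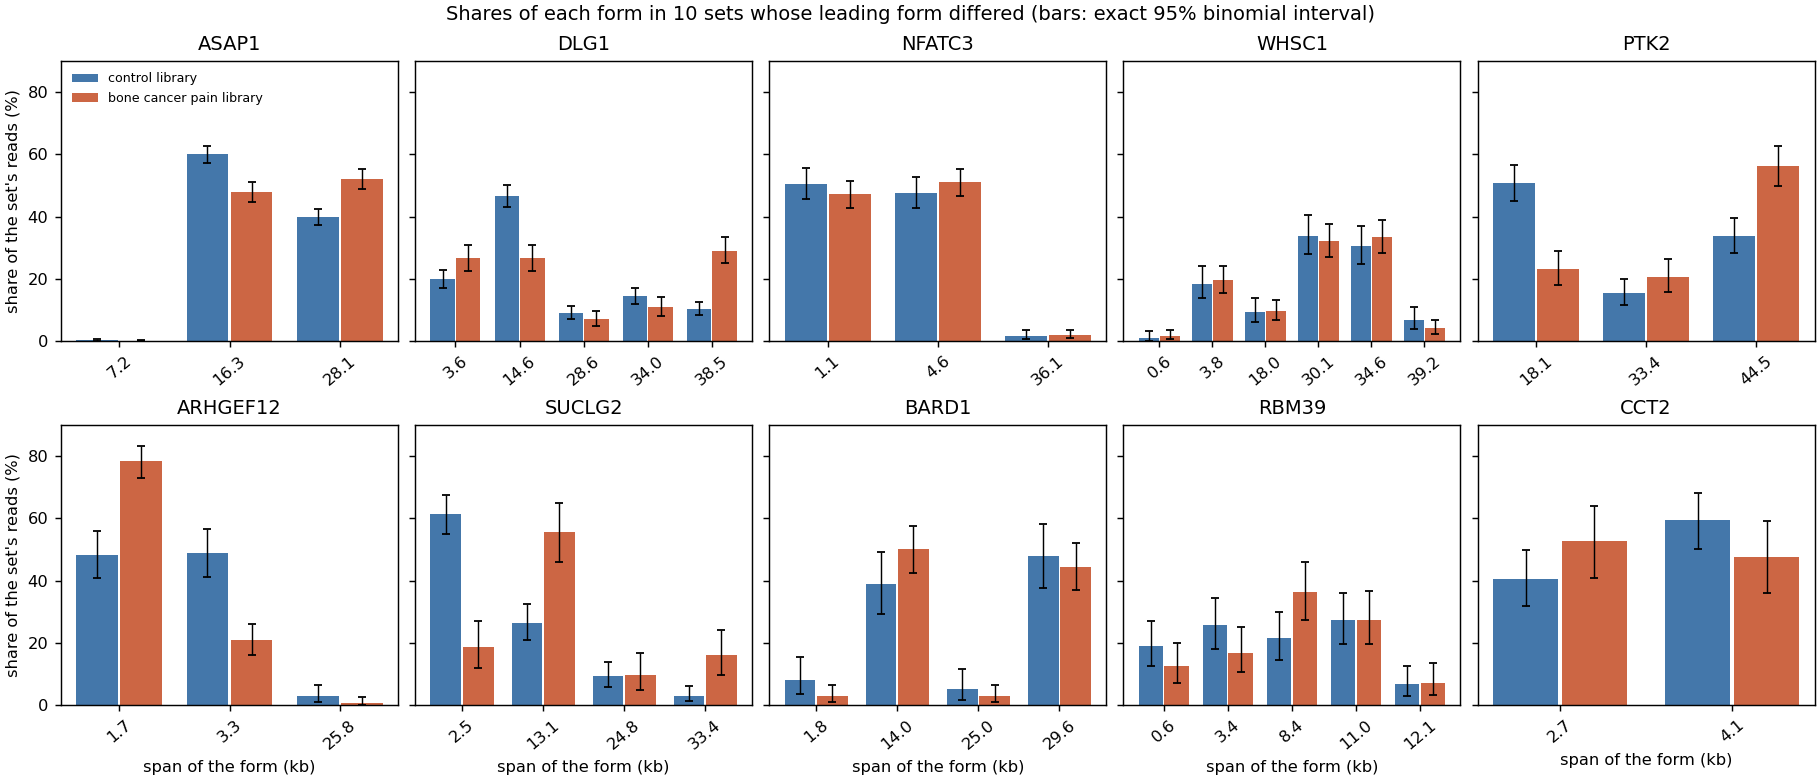
Share of the set's reads (y axis, %) on each form by span in kb (x axis) in the 10 most-read sets whose leading form differed, with bars for the control and the pain library and lines for exact 95% binomial intervals. In DLG1, PTK2, SUCLG2 and ARHGEF12 the intervals of the control's leading form do not overlap between the libraries, and in NFATC3, WHSC1, BARD1 and CCT2 they do.

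Shares were also compared without regard to the lead. In 160 of the 841 sets (19.0%), from 139 genes, the share of a form differed by 20 points or more, beside a background of 18.8 percent of the sets from all circRNAs with 1 host. It was 90 start sets (20.1%) and 70 end sets (17.8%). The largest difference of a form's share in a set had a median of 9.52 points and was under 5 points in 230 sets. This varied with the reads of the set: differences of 20 points or more were seen in 128 of 441 sets with 40 to under 100 reads (29.0%), 27 of 312 with 100 to under 300 (8.65%) and 5 of 88 with 300 or more (5.68%). The lead differed in 55 (12.5%), 28 (8.97%) and 7 (7.95%) of the same sets. The mean span of a set, weighted by reads, was longer in the pain library in 98 of the 160 sets (61.3%) and shorter in 62 (38.8%), beside backgrounds of 64.9 and 35.1 percent of 271 such sets from all circRNAs with 1 host. Over all 841 sets it was longer in 502 (59.7%) and shorter in 337 (40.1%), beside 58.5 and 41.3 percent of the 1438. The tilt toward longer forms was thus near that of sets from the whole table. All 841 ends are among the 1438, so these backgrounds are not separate from the members. Whether sets at other ends tilt alike was not tested. Members of a gene that are linked through common ends were also joined, so that no circRNA counted more than once. The mean span was then longer in the pain library in 378 of 626 groups and shorter in 247.

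The largest share differences were in sets of modest depth, the 10 largest in sets of 47 to 351 reads over both libraries, SUCLG2 above having the most. ABCC4, an efflux pump for cyclic nucleotides and drugs, had loops of 10836, 18011 and 27354 bp ending at position 95840796 of chromosome 13, with 38, 0 and 5 control reads and 12, 10 and 17 pain library reads. The shortest held 88.4% of the control set (interval 74.9 to 96.1) and 30.8% of the other (17.0 to 47.6), which was the widest difference of any set read. WDHD1 had loops of 2665, 16270 and 17463 bp starting at position 55451441 of chromosome 14 with 29, 10 and 3 control reads and 3, 13 and 7 pain library reads. Its shortest loop held 69.0% and 13.0%. In ABCC4 and WDHD1 the shortest loop had fewer reads in the pain library and both longer ones had more.

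CANX had 28 and 3 reads on its 6422 bp loop starting at position 179136874 of chromosome 5 and 21 and 22 on its 10688 bp loop (odds ratio of the longer 9.48, interval 2.39 to 56.0). KATNAL1, of the katanin family that severs microtubules, had 20 and 11 reads on a 3729 bp loop ending at position 30857928 of chromosome 13 and 3 and 17 on a 28345 bp loop (9.79, 2.16 to 63.7). UBA2, a subunit of the enzyme that activates SUMO, had 14 and 6 reads on a 2989 bp loop ending at position 34957919 of chromosome 19, 9 and 21 on a 15034 bp loop (3.19, 0.926 to 11.7) and 0 and 4 on a 35154 bp loop. Among the members at these 3 ends a longer loop led in the pain library and the shortest in the control. With every circRNA at the KATNAL1 end counted (3 forms, 51 control and 49 pain library reads), its lead did not differ.

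Another 4 of the 10 went toward the shorter loop. ACOT9, a mitochondrial acyl-CoA thioesterase, had 7 and 19 reads on an 873 bp loop ending at position 23740870 of chromosome X and 21 and 5 on a 9619 bp loop (odds ratio of the shorter 10.7, interval 2.66 to 52.4). SNX5, a sorting nexin of endosomes, had 11 and 26 on a 1531 bp loop starting at position 17933231 of chromosome 20 and 14 and 3 on a 2889 bp loop (10.5, 2.31 to 68.3). LARP4B, an RNA-binding protein, had 7 and 38 on a 1314 bp loop starting at position 930387 of chromosome 10 and 13 and 11 on a 6383 bp loop (6.21, 1.8 to 23.6). The lead differed in these 3. FKBP5, a co-chaperone of the glucocorticoid receptor, had 0 and 10 on a 1179 bp loop starting at position 35586873 of chromosome 6 and 23 and 14 on a 23748 bp loop, which led in both libraries. Since these sets were picked for their share difference, their intervals describe counting error and are no test.

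Compared in pairs, longer forms more often stood higher against their shorter partners in the pain library than the reverse. The members gave 3627 pairs that share an end, and 1123 pairs from 540 genes had 10 or more reads on each form over both libraries. The ratio of the shorter to the longer form differed by 2-fold or more in 482 (42.9%), beside a background of 44.0 percent for end-sharing pairs of all circRNAs with 1 host and 45.3 percent for 2031 pairs of catalogued circRNAs of 1 gene that share no end. The direction was uneven. In the pain library 302 pairs (26.9%) stood 2-fold or more toward the longer form (backgrounds 27.9 and 24.9 percent) and 180 (16.0%) toward the shorter one (backgrounds 16.1 and 20.4 percent). These shares were near those of all end-sharing pairs, most of which are the members' own. The median log2 change of the ratio was -0.26 for pairs that share an end and -0.10 for pairs of a gene that do not. With the most-read pair of each gene alone, 132 of 540 went toward the longer form and 92 toward the shorter, with a median of -0.21, and among pairs with no shared end 121 and 121 of 513, with a median of -0.03. The longer form exceeded the shorter by a median of 9861 bp in pairs sharing an end and 7663 bp in the other pairs.

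Pairs with more reads passed 2-fold less often. With 10 to under 20 reads on the scarcer form, 54.6% of 571 end-sharing pairs passed 2-fold. With 20 to under 50 it was 35.2% of 389, and with 50 or more 20.2% of 163, of which 24 went toward the longer and 9 toward the shorter form. Pairs of catalogued circRNAs of 1 gene with no shared end passed 2-fold in 50.7% of 1226, 39.0% of 638 and 29.9% of 167. In the last class 28 went toward the longer and 22 toward the shorter form. The median absolute log2 change with 50 or more reads was 0.48 for pairs that share an end and 0.65 for those that do not. Across pairs, the log2 ratios of the 2 forms had a Pearson correlation of 0.11 and a Spearman correlation of 0.11 over 1123 end-sharing pairs, and -0.01 and 0.02 over 2031 others. All points come from the same 2 libraries and many share a circRNA, so these are descriptions.

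**Figure D5:**
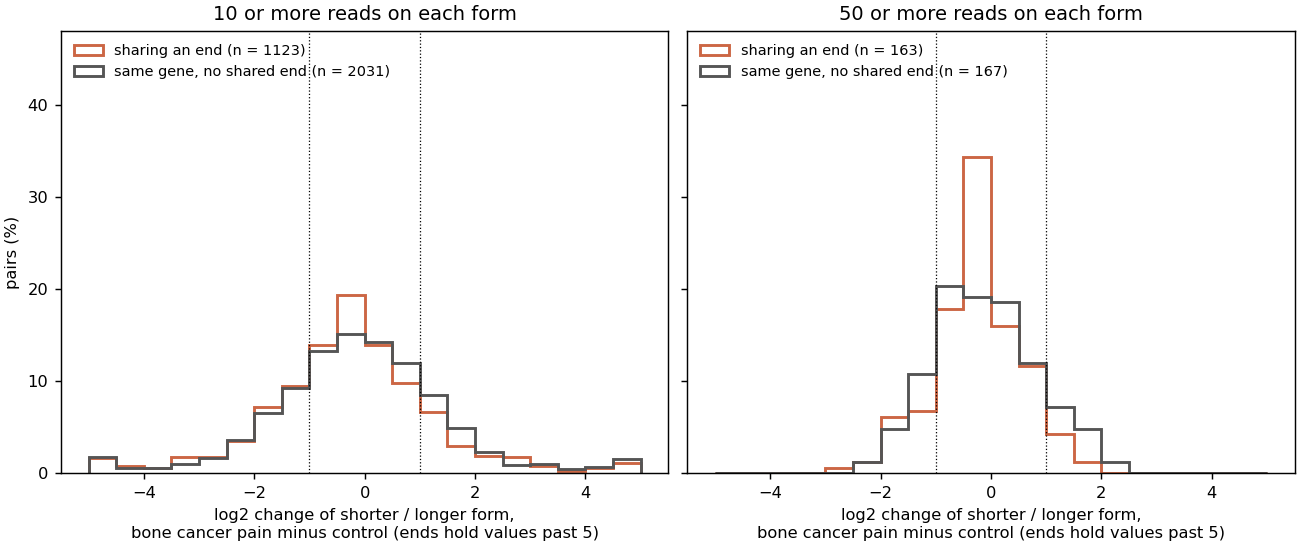
Percent of pairs (y axis) by the log2 change of the ratio of shorter to longer form, bone cancer pain minus control (x axis), for pairs sharing an end and pairs of the same gene that share none, with 10 or more reads on each form on the left and 50 or more on the right. Dotted lines mark 2-fold. On the right the end-sharing pairs are the narrower group, with 24 of 163 past 2-fold toward the longer form and 9 toward the shorter.

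The 5 most extreme pairs in each direction all had a form listed in 1 library alone, so no fold is given. Toward the longer form, PUM2, a translational repressor that binds messenger RNA, had 9 and 2 reads on a 1118 bp loop and 0 and 19 on a 48796 bp loop ending at position 20527139 of chromosome 2. ALDH1A2 had 11 and 5 reads on its 2435 bp loop beside the 0 and 28 above. PITPNA, a phosphatidylinositol transfer protein, had 14 and 4 on a 10264 bp loop and 0 and 10 on a 24461 bp loop. The ABCC4 set above also belongs here. In these 4 genes the shorter form also stood lower in the pain library. The ranking by change of ratio favours such pairs, so this is in part a result of the choice.

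Toward the shorter form, DGKE, a diacylglycerol kinase, had 3 and 7 reads on a 1791 bp loop and 17 and 0 on a 4047 bp loop starting at position 54921380 of chromosome 17. RPAP2, a phosphatase of RNA polymerase II, had 5 and 10 on a 12524 bp loop and 14 and 0 on a 47483 bp loop. ANKFY1, an endosomal protein, had 0 and 10 on a 3627 bp loop and 8 and 4 on a 29570 bp loop. SPAG9, a scaffold for JNK signalling, had 4 and 6 on a 4714 bp loop and 11 and 0 on a 7492 bp loop, and FKBP5 made up the fifth. In DGKE, RPAP2 and SPAG9 the form absent from a listing was the longer one, and in ANKFY1 and FKBP5 the shorter.

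Which loop of a pair was more abundant depended on how far apart the free ends were. Among 3103 pairs with 10 or more reads, the shorter form had more reads in 1796 control pairs and the longer in 1180, so the shorter led in 60.3% of the unequal pairs. In the pain library it was 1683 and 1305, or 56.3%. The shorter led in 68.2% of 1442 control pairs and 62.1% of 1434 pain library pairs when the longer form exceeded it by 10 kb or more. At 2 to under 10 kb it was 55.1% of 1257 and 52.0% of 1280, and at under 2 kb 43.3% of 277 and 46.0% of 274. In both libraries the shorter loop thus led more often the more the other exceeded it, and the difference between the libraries was widest in the pairs furthest apart. The order was the same in both libraries for 1426 pairs led by the shorter and 945 led by the longer form. It was opposite in 495, of which 304 had the longer form ahead in the pain library and 191 the shorter. The order of forms was not counted in pairs of all circRNAs or in pairs that share no end. Whether these shares are particular to the members was therefore not tested.

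The members were also read through 8 lists of genes by function. Beside the counts of each list stand the backgrounds of 17.3 percent higher and 17.0 percent lower over all circRNAs, whose median log2 ratio was -0.00. For the sets of a list, the lead differed in 10.7% of all 841 sets of members, beside a background of 8.97 percent. It was 7.21% with 2 forms, 16.4% with 3 and 18.5% with 4 or more. The sets of each list are few, so their counts are not set apart from these shares. Pairs of a set share forms, so the pair counts of a list are not independent and can rest on few genes. The list of the actin and microtubule skeleton with adhesion had the most, 173 members from 29 of its 53 genes. Among 104 that could be read, 15 (14.4%) stood 2-fold or more above the control and 17 (16.3%) below it, and the median log2 ratio was -0.06. Another form led in 7 of its 47 sets, and of 87 pairs 26 went 2-fold or more toward the longer and 7 toward the shorter form. Besides DLG1, PTK2 and ARHGEF12, the sets were in CLASP2, VCL and ARHGAP10, which are named after their values were seen. CLASP2, which stabilises the plus ends of microtubules, had 16 and 23 reads on a 5574 bp loop and 50 and 15 on a 12575 bp loop (odds ratio of the shorter 4.71, interval 1.87 to 12.4). CORO1C held the most-read set of the list.

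The list of vesicle traffic and membrane proteins also had more pairs toward the longer form. Of its 53 genes 23 had members, 102 in all. Of 49 with 10 or more reads, 9 (18.4%) were higher, 10 (20.4%) lower and 30 between (median 0.08), and 21 of 37 pairs went toward the longer and 4 toward the shorter form. Its most-read set was that of EXOC6B, a subunit of the exocyst, ending at position 72960247 of chromosome 2. Both of its loops stood higher together, at 253 and 367 reads for that of 2112 bp (ratio 1.53, interval 1.3 to 1.8) and 120 and 152 for that of 15016 bp (1.34, 1.04 to 1.71), and the shorter held 67.8% and 70.7%. Of 19 sets 2 had another lead, both of ABCC4. For comparison, 26.9% of all tested pairs of members went toward the longer form and 16.0% toward the shorter. The PICALM set described above alone gave a large part of the 21, so they do not describe the list as a whole.

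Chromatin and DNA modification had 140 members from 32 of 55 genes. The median was 0.19 over 66 read, 12 of them higher (18.2%), 9 lower (13.6%) and 45 between. Of its 25 sets 4 had another lead, in WHSC1 and, named after their values were seen, BAZ1B, SETD2 and EHMT1. BAZ1B, a bromodomain protein of chromatin remodelling, had 36 and 12 reads on a 967 bp loop and 25 and 42 on a 10948 bp loop (odds ratio of the longer 4.00, interval 1.8 to 9.23). Of 41 pairs 10 went toward the longer and 6 toward the shorter form, and the most-read set was that of ASXL1.

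RNA binding, splicing and circRNA formation had 91 members from 20 of 53 genes, with 6 higher (12.8%), 5 lower (10.6%) and 36 between of 47 read (median -0.04). There were 4 of 20 sets with another lead, in RBM39, another XPO1 set and, named after their values were seen, DDX17 and LARP4. Of 34 pairs 9 went toward the longer and 4 toward the shorter form.

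Ubiquitin genes had 98 members from 22 of 48 genes, with 7 higher (13.0%), 9 lower (16.7%) and 38 between of 54 read (median -0.02). Of 28 pairs 9 went toward the longer and 4 toward the shorter form, and the lead differed in 2 of 22 sets. The most-read set was that of USP25, a deubiquitinase, starting at position 17135210 of chromosome 21. Its 3251 bp loop had 310 and 208 reads (ratio 0.707, interval 0.591 to 0.846), its 15137 bp loop 24 and 5 (0.220, 0.0655 to 0.587) and its 28774 bp loop 0 and 2.

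Cell division and DNA repair had 80 members from 28 of 60 genes, with 6 higher (12.0%), 6 lower (12.0%) and 38 between of 50 read (median 0.11). The lead differed in 1 of 20 sets, and of 22 pairs 5 went toward the longer and 3 toward the shorter form. The most-read set was that of FANCL, the ubiquitin ligase of the Fanconi anaemia pathway, ending at position 58459247 of chromosome 2, whose 10171 bp loop had 321 and 234 reads, or 96.1% and 96.3% of the set.

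Signalling genes had fewer members. The list of MAPK and ERK signalling had 39 from 15 of 36 genes, with 5 higher (31.3%), 1 lower (6.25%) and 10 between of 16 read (median -0.15). Its most-read set was that of MAP3K4, a kinase upstream of p38 and JNK, ending at position 161471011 of chromosome 6. Its 1364 bp loop had 13 and 33 reads (ratio 2.68, interval 1.37 to 5.54) and its 15721 bp loop 38 and 93 (2.58, 1.75 to 3.87), so both stood higher while the shorter kept 25.5% and 26.2% of the set. The list of PI3K, AKT and mTOR had 25 members from 6 of 26 genes, with 0 higher, 4 lower (30.8%) and 9 between of 13 read (median -0.50). These 2 lists hold too few circRNAs for such shares to be set against the backgrounds of 17.3 and 17.0 percent. PIK3C3, the class III phosphatidylinositol 3-kinase, had 3 loops ending at position 39629569 of chromosome 18 with spans of 5873, 10825 and 22163 bp. They had 77, 6 and 30 control reads and 48, 0 and 42 pain library reads, and the longest held 26.5% and 46.7% (odds ratio 2.41, 1.29 to 4.55). The lead differed in 0 of the 7 sets of either list.

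COL8A1, which encodes a chain of type VIII collagen and is named in the series design, had 4 circRNAs in the table and none that met the conditions.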

How the data were processed

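RNA of 2 groups, 1 library each, was freed of ribosomal RNA and then, per the labels' protocols, of linear RNA by 16 units of RNase R (37 °C, 15 minutes). The submitters' processing notes name CASAVA 1.8, BWA and rn6 with no role. Which program called the circRNAs is not given in the sources used here.

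Values that the authors deposited, in a unit called TPM per the file headers, were treated as RPM, that is circular junction reads scaled to the library total with no length term. Above a placeholder of 0.001, taken as 0 reads, 100% of them were whole multiples of 1 step per library to within 0.001 reads. Dividing by the step gave the reads, 159941 and 151685 in all. Circles with a single read may be missing from the table, so no fold is given for those absent from 1 library. Positions are 1-based as in the table, whose genome build it does not name, and a span counts both end bases.

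A ratio is the bone cancer pain share of reads over the control share, and its 95% interval is the exact conditional one (Clopper-Pearson). Intervals of shares are exact binomial and those of odds ratios exact conditional. Calls by size used 10 or more reads (circRNAs, or each form of a pair), 20 or more reads in each library (sets), 0.5 reads added and 2-fold. With 1 library per group no test between the groups was possible. Reads of other genes at a shared end were not counted.

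Members, lists and rules were chosen with earlier results of these data known. The rule named the 10 sets with most reads, the 10 with the largest share change, the 10 most-read with another lead, the 5 with most forms, the 5 highest and 5 lowest pairs and members (20 or more reads), the most-read set of each of 8 lists, and genes the series text names. A few items picked in this way are not reported here. TBCD, PTK2, PICALM and the 5 genes with 12 or more members whose interval left out 1 were named after their values were seen. Other settings covered scaling, minimums, reads added and how sets were joined. The code was checked on simulated data. The code ran in Python 3.11.15 (numpy 2.4.6, scipy 1.17.1, pandas 2.3.3) and plots were drawn with matplotlib 3.10.9. Sequences and exon annotation were not used here.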

Additional observations from a re-analysis of the deposited data

How the results depend on the processing

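No paired analysis was possible because each group has 1 library and the labels give no replicate numbers to pair. For the same reason no replicate could be left out, and the depth limits most sets: 441 of the 841 had under 100 reads. Of 44 alternative values, 23 stayed within 1.5 times the count, or within the interval or spread, of the value reported and 21 did not. Counts followed the minimum of reads. With 20 or more reads, 139 members were at least 2-fold higher and 125 lower, and with no minimum 1097 and 1124. Sets whose lead differed numbered 155 of 1255 with 10 or more reads in each library and 29 of 330 with 50 or more. Sets with a share shift of 20 points numbered 357 and 24. Where the interval of the odds ratio had to leave out 1, the lead differed in 41. Pairs past 2-fold numbered 170 of 552 with 20 or more reads on each form, 1063 of 1991 with 5 or more, 246 where the interval left out 1, and 224 of 540 with 1 pair per gene. In each of these, more went toward the longer form (111, 633, 156 and 132) than toward the shorter (59, 430, 90 and 92). The median share of the leading form with linked members joined was 71.53% (control) and 70.29% (bone cancer pain), and 73.47% and 71.74% over members with 2 or more reads in each library. The shorter form led in 57.83% and 53.73% of pairs with both forms at 2 or more reads in each library. Members with or without a catalogue identifier, 7859 in all, held 59.86% and 60.26% of the reads. Scaling by the median of ratios gave 295 members higher and 331 lower, the reverse of the balance reported, and TMM gave 324 and 291. Scaling does not enter shares, leads or pairs. The settings with every circRNA at an end, with the interval of the lead's odds ratio and with 1 pair per gene were added after the data had been seen.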
